A study of Mus musculus with 6 samples.

Results

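The 37 genes described here encode the contractile apparatus of skeletal muscle and the proteins that feed it with calcium and energy, and they were measured in fat. They were taken from a fixed list of muscle gene symbols, each matched to the row with its mouse gene ID, and all 37 were found among the 24415 genes of the count table. RNA was sequenced from inguinal white adipose tissue of Hsp20 KO mice and WT mice, 3 libraries per genotype and 1 mouse per library, all aged 12 weeks, on a C57BL/6 background and not fasted. Hspb6 is the gene of Hsp20, a small heat shock protein, and the labels do not describe the knockout allele. Libraries held between 14078936 and 32648746 counts. Hspb6 had 245, 33 and 53 counts in the libraries labelled Hsp20 KO replicates 1 to 3, against 325, 289 and 296 counts in WT replicates 1 to 3. For the targeted gene, replicate 1 of the labelled knockouts thus lay near WT, and every direction below compares libraries as labelled.

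Skeletal muscle contracts when myosin heads of the thick filament pull on actin in the thin filament, within repeating units called sarcomeres that are bounded by Z-discs. Calcium released from the sarcoplasmic reticulum binds troponin C and frees the thin filament for myosin, and a calcium pump then ends the contraction. Fast and slow fibres build this machine from different gene copies, with their own myosin heavy chains and their own troponins. White fat cells do not build sarcomeres, but the inguinal depot lies under the skin beside thin sheets of striated muscle, and its blood vessels carry smooth muscle, which shares a few of these genes. The tissue label was checked against adipocyte markers: the 9 listed ones, Adipoq, Plin1 and Fabp4 among them, summed to between 16030 and 24640 CPM (counts scaled to a common library size after TMM normalization) in the 6 libraries.

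Sarcomere transcripts were scarce in 5 of the 6 libraries and several times more abundant in WT replicate 1. The 37 genes summed to 201, 232 and 275 CPM in the libraries labelled Hsp20 KO replicates 1 to 3, against 1503, 234 and 307 CPM in WT replicates 1 to 3. They took 0.0199%, 0.0238% and 0.0263% of all counts in the libraries labelled knockout, and 0.148%, 0.0240% and 0.0311% in WT. WT replicate 1 stood apart from both other WT libraries, and those 2 lay within or just above the range of the libraries labelled knockout. In bulk tissue, a smaller number of muscle fibres and less muscle RNA per fibre cannot be told apart.

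WT replicate 1 held the highest level for 33 of the 37 genes, while it was the highest library for 18.1% of the 15994 genes tested. It exceeded the median of the other 5 libraries more than 2-fold for 29 of the 37 (1.74% of all genes tested), more than 5-fold for 22 (0.325%) and more than 10-fold for 15 (0.131%). The order WT replicate 1 above replicate 3 above replicate 2 held for 32 of the 37, and for 3191 of the 15994 genes tested. Among the 3 libraries labelled Hsp20 KO, replicate 3 was the highest for 26 of the 37, against 38.8% of all genes tested.

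**Figure D1:**
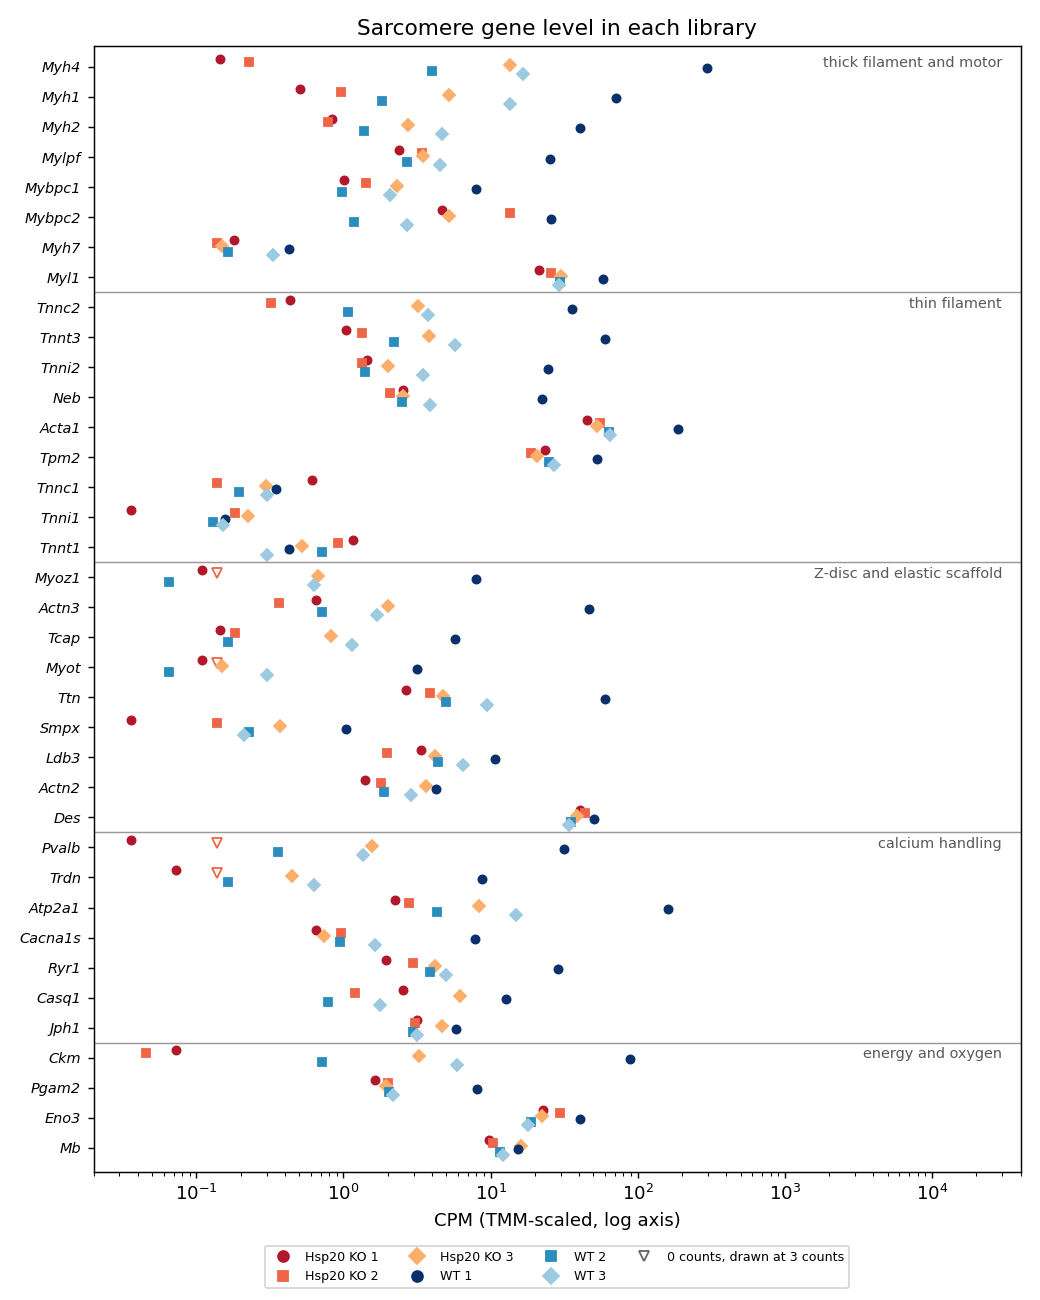
Level of each of the 37 sarcomere genes (rows, grouped by role) in each library, as TMM-scaled CPM on a log axis; red and orange points are libraries labelled Hsp20 KO and blue points are WT, and open triangles mark libraries with 0 counts, drawn at 3 counts. WT replicate 1 lies to the right for most genes, among them Myh4, Ckm and Pvalb, while Des and Mb differ little between libraries.

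The myosin heavy chains, the motors of the thick filament, differed widely between libraries. Myh4, the chain of the fastest (type 2B) fibres, lies on the plus strand of chromosome 11 at 67237812 to 67260447 (GRCm38). It had 4, 5 and 182 counts in the libraries labelled Hsp20 KO replicates 1 to 3, against 7563, 123 and 550 counts in WT replicates 1 to 3. These were 0.145, 0.229 and 13.5 CPM, against 294, 4.01 and 16.6 CPM. Only the library labelled Hsp20 KO replicate 3 reached the WT range, so the groups overlapped. Myh1 (type 2X) had 0.506, 0.962 and 5.20 CPM in the libraries labelled knockout, against 71.1, 1.83 and 13.6 CPM in WT. Myh2 (type 2A) had 0.832, 0.778 and 2.75 CPM, against 40.6, 1.37 and 4.69 CPM. For all 3 fast chains, the WT library with the lowest level lay below the labelled knockout library with the highest. Mean Myh4 was 4.63 ± 7.69 CPM in the libraries labelled knockout and 105 ± 164 CPM in WT (SD, n = 3 each), so the SD exceeded the mean in both groups.

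The 3 fast chains lie side by side on chromosome 11 and are near copies, so reads can be split between them. Their first 60 coding bases, read from GENCODE M21 transcripts (GRCm38) as the start of the longest open reading frame, are shown to make this likeness visible, with capitals at positions that differ from Myh4.
Myh4: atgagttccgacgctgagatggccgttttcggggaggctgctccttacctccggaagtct
Myh1: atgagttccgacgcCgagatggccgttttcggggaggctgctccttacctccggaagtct
Myh2: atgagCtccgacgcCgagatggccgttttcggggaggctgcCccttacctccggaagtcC
Myh1 differed from Myh4 at 1 of these 60 bases and Myh2 at 4. Of all windows of 50 bases in its transcripts, Myh4 shared 18.9% with transcripts of another gene, Myh1 30.5% and Myh2 28.9%, on either strand. The level of each single fast chain is therefore uncertain.

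The other thick filament genes ranged less. Mylpf, a fast regulatory light chain, had 2.39, 3.43 and 3.49 CPM in the libraries labelled Hsp20 KO, against 25.2, 2.71 and 4.51 CPM in WT. Myl1, an essential light chain, was far from 0 in every library, with 21.5, 25.6 and 30.3 CPM against 58.1, 29.9 and 29.1 CPM. Transcripts of Mylf-ps held 16.0% of its 50-base windows. Mybpc1, a slow form of myosin-binding protein C, had 1.01, 1.42 and 2.30 CPM against 7.996, 0.979 and 2.09 CPM. Mybpc2, the fast form of that protein, ran in another order outside WT replicate 1. It had 4.66, 13.5 and 5.20 CPM in the libraries labelled Hsp20 KO replicates 1 to 3, against 25.8, 1.18 and 2.72 CPM in WT replicates 1 to 3. With WT replicate 1 set aside, its 3 labelled knockout libraries all lay above its WT libraries.

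In the thin filament, the fast troponins followed Myh4. Tnnc2, the calcium-binding troponin C of fast fibres, had 0.434, 0.321 and 3.19 CPM in the libraries labelled Hsp20 KO, against 35.7, 1.08 and 3.75 CPM in WT. Of the 50-base windows of Tnnc2, 55.0% were also in transcripts of the gene Ube2c, so its counts may include reads of that gene. Tnnt3, which ties fast troponin to tropomyosin, had 1.05, 1.33 and 3.79 CPM against 59.8, 2.22 and 5.75 CPM. Tnni2, the inhibitory subunit of fast troponin, had 1.45, 1.33 and 2.01 CPM against 24.6, 1.40 and 3.45 CPM. Neb, the ruler of thin filament length, had 2.53, 2.06 and 2.52 CPM against 22.4, 2.51 and 3.90 CPM. For each of these genes WT replicate 1 was the highest library, and its gap to the next one was wider than the range of the other 5.

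Acta1, skeletal actin, was well above 0 in every library. It had 45.1, 55.4 and 53.2 CPM in the libraries labelled Hsp20 KO, against 187, 64.2 and 65.1 CPM in WT, and the groups did not overlap. Tpm2, beta-tropomyosin, had 23.5, 18.7 and 20.8 CPM against 53.2, 25.0 and 27.2 CPM, also without overlap. Tpm2 is also made in smooth muscle, which has an actin of its own, Acta2. The 10 smooth muscle genes on the list fixed for it, Acta2, Tagln and Myh11 among them, summed to 383, 402 and 442 CPM in the libraries labelled knockout and to 447, 478 and 443 CPM in WT, with a median log2 change of -0.25 and 2 of the 10 lower by edgeR (adjusted p under 0.05), Lmod1 and Cnn1, where 3.42% of all genes were. Without WT replicate 1, 0 of the 10 were lower, where 2.02% of all genes were. Their part in the levels of Acta1 and Tpm2 was not tested.

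For the slow troponins and the slow myosin heavy chain WT replicate 1 did not stand apart, unlike for Mybpc1. Tnni1, the slow troponin I, had 1, 4 and 3 counts in the libraries labelled Hsp20 KO, against 4, 4 and 5 counts in WT. Tnnc1, the troponin C of slow fibres and heart, had 17, 3 and 4 counts against 9, 6 and 10 counts. Myh7, the slow myosin heavy chain, had 5, 3 and 2 counts against 11, 5 and 11 counts, and 26.9% of its 50-base windows were in transcripts of another gene, mostly Myh6. Most of these counts lay near the 3 counts taken here as the floor of detection, and all 3 genes fell under the filter on low counts. In a fit with no filter, edgeR called 0 of the 37 sarcomere genes, where it called 737 of 21669 genes higher and 635 lower. Before adjustment (edgeR p under 0.05), 24 of the 37 were lower and 0 higher. Of all genes in that fit, 10.8% were then lower and 10.1% higher. Those 24 did not include any of Tnni1, Tnnc1 and Myh7. Tnnt1, the slow troponin T on chromosome 7, had 32, 20 and 7 counts in the libraries labelled knockout, against 11, 22 and 10 counts in WT. Its highest library was the one labelled Hsp20 KO replicate 1, which was the lowest for Myh4.

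The share of fast over fast plus slow transcripts, each per coding length, was highest in WT replicate 1 for all 4 pairs compared. For troponin I, the fast share was 97.5%, 87.4% and 89.6% in the libraries labelled Hsp20 KO replicates 1 to 3, against 99.3%, 91.1% and 95.6% in WT replicates 1 to 3. For troponin T, it was 45.8%, 57.5% and 87.2% in the libraries labelled knockout, against 99.2%, 74.2% and 94.7% in WT. The counts behind these shares are small outside WT replicate 1: troponin T had 29 fast and 32 slow counts in the library labelled Hsp20 KO replicate 1, a raw fast share of 47.5% with a 95% Wilson interval of 35.5% to 59.8%. WT replicate 1 had 1541 fast and 11 slow counts, a share of 99.3% with an interval of 98.7% to 99.6%. These intervals treat each read as independent and cover counting error only. They may be too narrow even for that, since reads without molecular identifiers are not independent molecules. For troponin C, the fast share was 41.5%, 70.1% and 91.5% in the libraries labelled knockout, against 99.04%, 84.7% and 92.6% in WT. For the myosin heavy chains, with Myh1, Myh2 and Myh4 as fast and Myh7 as slow, it was 89.1%, 93.5% and 99.3%, against 99.9%, 97.8% and 99.1%.

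The mix among myosin chains also differed between libraries. Myh4 made up 8.71%, 10.9% and 62.6% of the 4 chains per coding length in the libraries labelled Hsp20 KO replicates 1 to 3, against 72.4%, 54.5% and 47.2% in WT replicates 1 to 3. Myh2 made up 49.97%, 36.9% and 12.7%, against 10.01%, 18.6% and 13.3%. The library labelled knockout replicate 1 held 41 fast and 5 slow myosin counts and replicate 2 held 43 and 3, so their mix rests on few reads, and the chains share stretches of sequence. Myh7 was 0.106% of the mix in WT replicate 1.

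**Figure D2:**
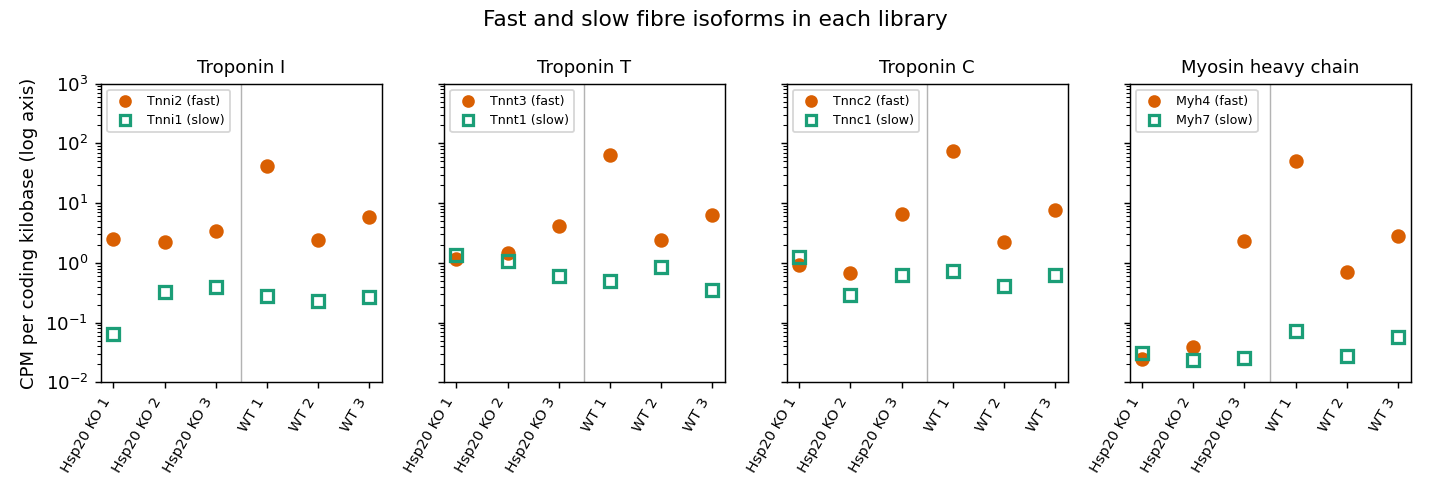
CPM per coding kilobase (log axis) of the fast gene (filled circles) and the slow gene (open squares) of each pair, in the 3 libraries labelled Hsp20 KO (left of the line) and the 3 WT libraries (right). The fast genes peak in WT replicate 1, with Tnni2 at 41.9 and Myh4 at 50.5, while the slow genes stay below 2 CPM per coding kilobase in every library.

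Z-disc and scaffold genes split into steep and shallow members. Actn3, the alpha-actinin of fast fibres, had 0.651, 0.366 and 2.01 CPM in the libraries labelled Hsp20 KO, against 46.6, 0.718 and 1.69 CPM in WT. Ttn, the giant elastic protein titin, had 2.68, 3.85 and 4.75 CPM against 59.5, 4.96 and 9.49 CPM. For Ttn every labelled knockout library lay below every WT library, by a small margin at WT replicate 2. Myoz1, a calcineurin-binding Z-disc protein of fast fibres, had 3, 0 and 9 counts against 206, 2 and 21 counts. Myot, the Z-disc protein myotilin, had 3, 0 and 2 counts against 82, 2 and 10 counts, and Tcap, which caps titin, had 4, 4 and 11 counts against 148, 5 and 38 counts. Smpx, a small striated muscle protein, had 1, 3 and 5 counts against 27, 7 and 7 counts. A count of 0 in the library labelled Hsp20 KO replicate 2 allows up to 0.137 CPM.

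Ldb3, a Z-disc adaptor, had 3.36, 1.97 and 4.16 CPM in the libraries labelled Hsp20 KO, against 10.7, 4.41 and 6.53 CPM in WT, without overlap. Actn2, the alpha-actinin of all striated fibres, had 1.41, 1.79 and 3.64 CPM against 4.27, 1.89 and 2.87 CPM. Des, the intermediate filament desmin, which smooth muscle also makes, had 40.8, 44.1 and 38.8 CPM against 50.5, 35.4 and 34.3 CPM. The highest Des library was only 1.47 times the lowest, whereas for Myh4 that ratio was 2030.

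The calcium genes ranged from very steep to nearly flat. Pvalb, the calcium buffer parvalbumin of fast fibres, had 1, 0 and 21 counts in the libraries labelled Hsp20 KO, against 808, 11 and 45 counts in WT. Trdn, which anchors calsequestrin to the release channel, had 2, 0 and 6 counts against 224, 5 and 21 counts. Atp2a1, the calcium pump of fast fibres, had 2.24, 2.79 and 8.39 CPM against 160.0, 4.31 and 14.9 CPM. Rabep2 transcripts held 17.9% of its 50-base windows. Ryr1, the calcium release channel, had 1.95, 2.98 and 4.16 CPM against 28.7, 3.85 and 4.99 CPM, and Cacna1s, its voltage sensor, had 0.651, 0.962 and 0.743 CPM against 7.84, 0.946 and 1.63 CPM. Gm37759 transcripts held 15.9% of the 50-base windows of Cacna1s. Casq1, the calcium store protein calsequestrin, had 2.53, 1.19 and 6.24 CPM against 12.8, 0.783 and 1.78 CPM. Like Mybpc2, Casq1 was higher in the labelled knockout libraries 1 and 3 than in WT replicates 2 and 3. Jph1, which holds the surface membrane to the calcium store, had 3.18, 3.07 and 4.68 CPM against 5.82, 2.97 and 3.14 CPM.

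Of the energy genes, Ckm followed the fast motors and Mb and Eno3 did not. Ckm, the muscle creatine kinase, had 2, 1 and 44 counts in the libraries labelled Hsp20 KO, against 2268, 22 and 196 counts in WT. WT replicate 1 held 122.6 times the CPM of the median of the other 5 libraries, the largest such ratio of the 37 genes. Pgam2, the muscle form of a glycolytic mutase, had 1.63, 2.02 and 1.93 CPM against 8.07, 2.02 and 2.18 CPM, without overlap of the groups but with its highest labelled knockout library and its lowest WT library nearly equal. Eno3, the muscle enolase, had 22.9, 29.5 and 22.4 CPM against 40.5, 18.8 and 18.1 CPM. Mb, the oxygen carrier myoglobin, which thermogenic fat also makes, had 9.76, 10.35 and 16.2 CPM against 15.3, 11.6 and 12.1 CPM. Of the 50-base windows of Mb, 24.9% were in transcripts of another gene, mostly Gm49540. The 8 thermogenic genes on their list, Ucp1 and Cidea among them, summed to 257, 737 and 826 CPM in the libraries labelled knockout. In WT they summed to 108, 79.1 and 72.6 CPM. By edgeR, 7 of these 8 genes were called higher (adjusted p under 0.05), where 4.23% of all genes tested were. Their part in the levels of Mb and Eno3 was not tested.

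Per coding length, a scale on which genes can be set against each other, the leading members differed between a library with many sarcomere counts and one with few. In WT replicate 1 the order was Acta1 at 166, Pvalb at 95.04, Myl1 at 89.2, Ckm at 77.0, Tnnc2 at 74.3 and Tnnt3 at 65.0 CPM per coding kilobase. In the library labelled Hsp20 KO replicate 1 it was Acta1 at 39.9, Myl1 at 33.0, Des at 29.0, Tpm2 at 23.3, Mb at 21.1 and Eno3 at 17.6 CPM per coding kilobase, and Pvalb, Ckm and Myh4 were at 0.110, 0.0633 and 0.0249. Reads on untranslated parts are counted too, so genes with long untranslated ends can come out high on this scale. The 14 fast members together had 38.5, 51.9 and 88.3 CPM in the libraries labelled knockout replicates 1 to 3. In WT replicates 1 to 3 they had 893, 51.9 and 105 CPM. Myl1 alone held 21.5, 25.6 and 30.3 CPM of the sums in the libraries labelled knockout, and 58.1, 29.9 and 29.1 CPM in WT. The library labelled Hsp20 KO replicate 2 and WT replicate 2 had near-equal sums but differed in Myh4, at 0.229 and 4.01 CPM. The 4 slow members on the list, Myh7, Tnnt1, Tnni1 and Tnnc1, together had 1.99, 1.37 and 1.19 CPM, against 1.36, 1.21 and 1.09 CPM. Mybpc1 is not on that list. The 4 members that other cells of the depot also make, Des, Tpm2, Mb and Eno3, together had 96.9, 103 and 98.2 CPM, against 159.5, 90.8 and 91.6 CPM.

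**Figure D3:**
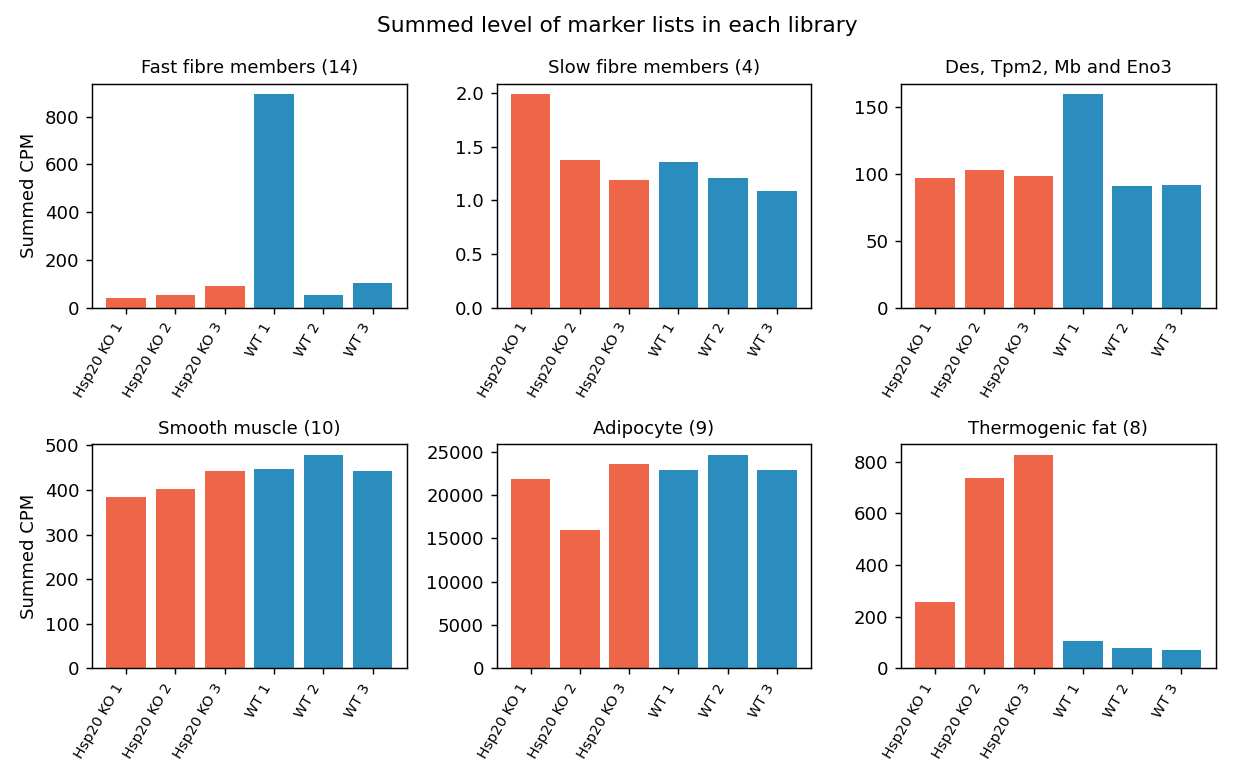
Summed CPM of 6 gene lists in the 3 libraries labelled Hsp20 KO (orange bars) and the 3 WT libraries (blue bars), each panel on its own axis from 0. The fast fibre members reach 893 CPM in WT replicate 1 and at most 105 CPM elsewhere, while slow, smooth muscle and adipocyte lists show no such peak. The slow list leaves out Mybpc1, a slow form with 7.996 CPM in WT replicate 1 and at most 2.30 CPM elsewhere.

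Of the 37 genes, 32 passed the filter on low counts and were tested between genotypes, and 0 were called higher or lower (edgeR quasi-likelihood test, Benjamini-Hochberg adjusted p under 0.05, smallest adjusted p = 0.0934 for Ldb3). Over all genes tested 7.65% were called, 4.23% higher and 3.42% lower. Before adjustment, at p under 0.05, 18 of the 32 were lower and 0 higher, where 12.7% and 13.3% of all genes were. That count of 18 was 2, 2 and 13 when the libraries labelled Hsp20 KO replicates 1, 2 and 3 were left out in turn, and 4, 24 and 23 when WT replicates 1, 2 and 3 were, while the share of all genes lower before adjustment lay between 8.74% and 13.2% in these 6 fits. DESeq2 called 3 of the 32 lower, Ldb3, Cacna1s and Atp2a1 (adjusted p = 0.0137, 0.0185 and 0.0468), and 0 higher, where it called 6.4% of all genes lower, 7.1% higher and 13.5% in either direction. limma-voom called 0 of the 32 and had 1 lower before adjustment (12.7% of all genes), and after adjustment it called 3.26% of all genes lower, 4.03% higher and 7.29% in either direction. The fitted log2 change of Hsp20 KO over WT was negative for 30 of the 32 and positive for 2, Des and Tnnt1, with a median of -2.04 where the median over all genes was 0.00. The genes under the filter were Myh7, Tnni1, Tnnc1, Myot and Smpx. The groups did not overlap for 5 of the 32, Ttn, Acta1, Tpm2, Ldb3 and Pgam2, all lower in the libraries labelled knockout, and over all genes tested 15.6% were lower without overlap.

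The size of these differences rested on WT replicate 1. Without that library the median log2 change of the 32 genes was -0.52, and 25 of the 32 had a negative change. Ckm had a log2 change of -5.24 ± 1.89 (SE, edgeR adjusted p = 0.133) with all libraries and of -1.91 ± 1.41 (adjusted p = 0.471) without it. For Myh4 these were -4.78 ± 1.87 (adjusted p = 0.158) and -1.37 ± 1.45 (adjusted p = 0.63). Acta1 had -1.04 ± 0.40 and -0.34 ± 0.10, with edgeR adjusted p = 0.153 and 0.115. Mybpc2 changed sign: its log2 change was -0.32 (edgeR adjusted p = 0.872) with all libraries and 1.996 ± 0.60 (adjusted p = 0.116) without WT replicate 1. Casq1, Eno3, Jph1 and Mb changed sign as well, at log2 changes of 1.28, 0.43, 0.22 and 0.01. Without WT replicate 1 edgeR again called 0 of the 32, where it called 2.02% of all genes lower, 2% higher and 4.02% in either direction. At an unadjusted p under 0.05 it then had 4 of the 32 lower, Acta1, Ttn, Tpm2 and Ldb3, and 3 higher, Mybpc2, Eno3 and Des, where 11.1% of all genes were lower and 11.8% higher, so these counts lay near the background. Leaving out the library labelled Hsp20 KO replicate 1 gave 0 calls and a median of -1.89, with 2 of the 32 lower before adjustment against 13.2% of all genes. After adjustment edgeR then called 4.52% of all genes lower, 5.82% higher and 10.3% in either direction. Leaving out that library and WT replicate 1 together gave 0 calls and a median of -0.42, with 2 of the 32 lower and 2 higher before adjustment against 13.3% and 12.6% of all genes. After adjustment 4.06% of all genes were then lower, 4.2% higher and 8.26% called in either direction.

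**Figure D4:**
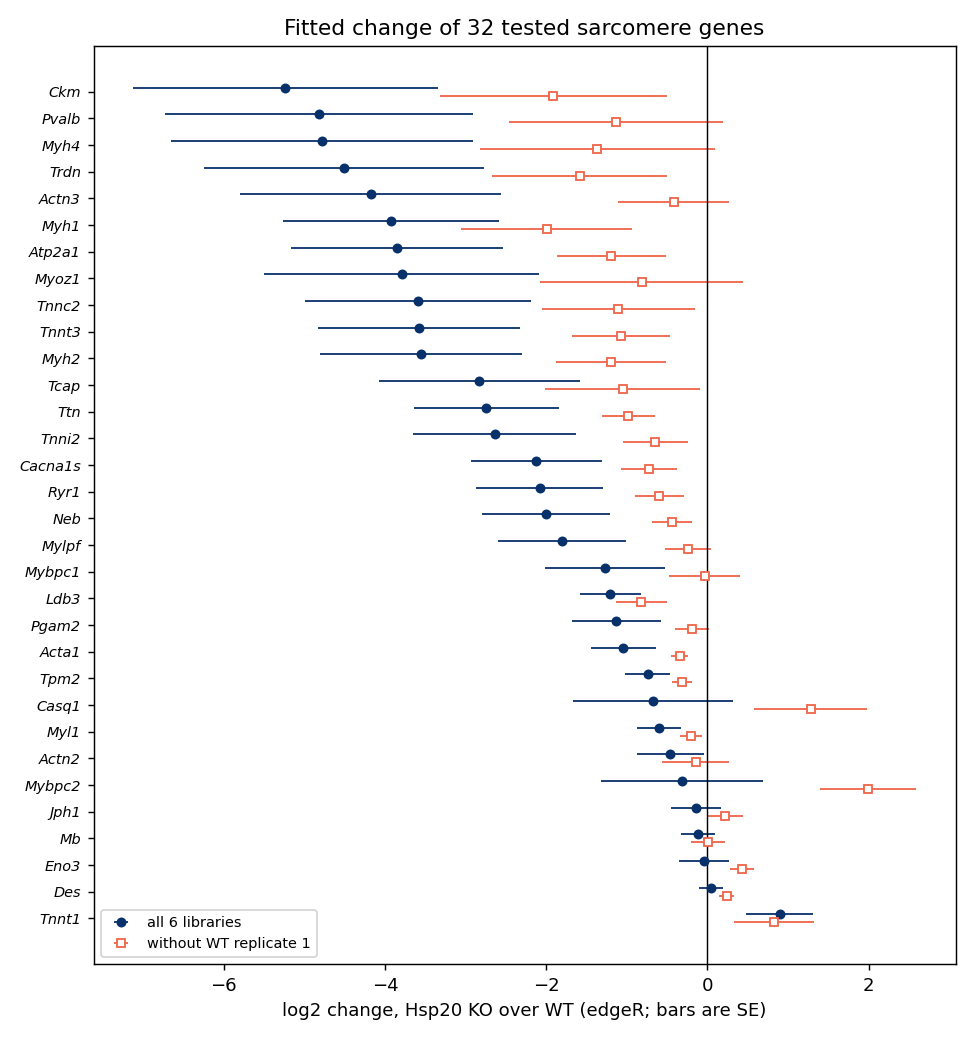
Fitted log2 change of Hsp20 KO over WT for the 32 tested sarcomere genes (rows), with all 6 libraries (filled circles) and without WT replicate 1 (open squares); bars are the SE. Without that library most changes lie nearer to 0, and those of Mybpc2 and Casq1 move to 1.996 and 1.28.

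Promoters of 28 of the 37 genes were found in a RefSeq table (GRCm38.p6, 250 bases before to 50 after each start). Motifs of muscle regulators were counted in their 34 promoters, on both strands, as a description of sequence. CAGCTG is an E-box of the kind bound by MyoD-family factors and is also one form of the looser motif CANNTG. That E-box was in 17 of the 34 member promoters and in 16.3% of all 32851 promoters. CANNTG was in 79.4% of the member promoters and in 72.3% of all. The MEF2 motif, bound by factors of that name, was in 14.7% of the member promoters and 3.19% of all, and the CArG box, bound by serum response factor, was in 11.8% and 1.63%. TATAAA, the core promoter letters, was in 17.6% and 13.6%. MEF2 and TATAAA matches can overlap, and a match marks letters, not a bound site. The promoters of Myh4 and Ckm, which ranged widely between libraries, and of Tnnt1, the slow gene highest where Myh4 was lowest, are shown with matches to these motifs in capitals.
Myh4 (chr11:67237562-67237861, plus strand): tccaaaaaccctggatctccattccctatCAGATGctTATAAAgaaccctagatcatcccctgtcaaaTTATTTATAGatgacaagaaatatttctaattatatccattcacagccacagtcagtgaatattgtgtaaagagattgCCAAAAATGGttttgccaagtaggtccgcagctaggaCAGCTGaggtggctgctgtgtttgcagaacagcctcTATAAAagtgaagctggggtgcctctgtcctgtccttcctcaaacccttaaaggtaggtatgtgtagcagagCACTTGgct
Ckm (chr7:19410844-19411143, plus strand): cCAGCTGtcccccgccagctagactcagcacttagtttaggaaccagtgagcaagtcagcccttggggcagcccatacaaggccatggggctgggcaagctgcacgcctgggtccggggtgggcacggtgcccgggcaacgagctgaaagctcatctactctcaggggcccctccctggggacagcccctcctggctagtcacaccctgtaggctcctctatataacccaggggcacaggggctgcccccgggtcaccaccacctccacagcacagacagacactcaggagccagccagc
Tnnt1 (chr7:4515926-4516225, minus strand): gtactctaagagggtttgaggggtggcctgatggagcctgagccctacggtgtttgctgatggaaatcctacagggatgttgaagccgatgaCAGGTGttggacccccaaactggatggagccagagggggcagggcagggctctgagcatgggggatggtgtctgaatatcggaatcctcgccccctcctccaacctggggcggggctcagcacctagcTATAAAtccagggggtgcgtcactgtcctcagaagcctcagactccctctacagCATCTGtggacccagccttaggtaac
The Myh4 promoter held 3 CANNTG matches, 1 of them CAGCTG, with 1 MEF2, 1 CArG and 3 TATAAA matches. Ckm held 1 CANNTG match, which is a CAGCTG, and Tnnt1 held 2 CANNTG matches, 1 TATAAA match and 0 of CAGCTG.

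Other muscle genes, from 3 lists outside the 37, gave some calls, where edgeR called 4.23% of all genes tested higher and 3.42% lower. Of 28 further sarcomere and cytoskeleton genes 21 were tested, and 1 was higher and 3 lower (edgeR adjusted p under 0.05), with a median log2 change of -0.47. The higher one, Mybph, a myosin-binding protein, had 29.4, 32.8 and 47.8 CPM in the libraries labelled Hsp20 KO, against 18.2, 21.4 and 17.4 CPM in WT. The lower ones were Klhl41, a stabilizer of nebulin, Smyd1, a methyltransferase of muscle, and Xirp1, an actin-binding protein, with log2 changes of -0.47, -0.79 and -1.24. These 4 were named after their values were seen. When single libraries were left out, Mybph passed in 3 of 6 fits, Klhl41 in 1, and Smyd1 and Xirp1 in 0, and all 4 lost their call without WT replicate 1. The 4 most abundant of that list, Tpm3, Tpm1, Cfl2 and Tmod1, are made by many cell types and did not pass (log2 changes from -0.29 to 0.10). Of 14 membrane and junction genes 8 were tested and 1 was lower, Jph2, a junctophilin, with a log2 change of -1.17 that passed in 1 of 6 such fits. Of 12 muscle energy genes 10 were tested, 3 higher and 1 lower (4.23% and 3.42% of all genes), with a median log2 change of 0.12. The higher ones were Gys1, glycogen synthase, Cox8b, a cytochrome oxidase subunit that thermogenic fat also makes, and Fabp3, a fatty acid carrier, with log2 changes of 0.40, 1.48 and 3.77, and Phkg1, a phosphorylase kinase subunit, had -0.56. Each of these 4 passed in 1 of the 6 fits, the one without the library labelled Hsp20 KO replicate 1.

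Markers of other cells that could enter the depot with muscle were low or followed another order. Heart genes, 8 on their list, summed to 5.68, 8.20 and 6.09 CPM in the libraries labelled Hsp20 KO and to 7.72, 6.50 and 6.50 CPM in WT. Muscle stem and differentiation genes were near 0: Myod1, Myog and Myf5 had at most 0.0362 CPM in any library, Pax7 at most 0.121 CPM and Myf6 was at 0 in all 3 libraries labelled knockout. Epidermal genes summed to 13.2, 12.4 and 14.4 CPM in the libraries labelled knockout and to 67.2, 54.6 and 67.9 CPM in WT. Sbsn alone had 10.2, 9.57 and 11.2 CPM against 64.0, 52.7 and 64.3 CPM. Of the 2 epidermal genes tested it was the 1 called lower, where 3.42% of all genes were (log2 change -2.55, edgeR adjusted p = 0.000202). Sbsn starts at 30751471 on chromosome 7 and the targeted gene Hspb6 at 30552178 (GRCm38). Whether its level reflects epidermis in the depot was not tested. Among the epidermal keratins on the list, Krt5, Krt14 and Krt1 had at most 0.388 CPM. Krt10 had 1.99, 2.70 and 3.04 CPM in the libraries labelled knockout, against 2.10, 1.57 and 2.87 CPM in WT. Blood transcripts summed to 4833, 4341 and 3963 CPM against 8985, 10320 and 10240 CPM, with WT replicate 1 the lowest of the WT libraries. By edgeR, all 5 blood genes were called lower (adjusted p under 0.05), where 3.42% of all genes tested were. Without WT replicate 1 all 5 were again lower, where 2.02% of all genes were. Hba-a1 and Hba-a2, near-identical alpha-globin genes on that list, had almost the same counts in every library. The sum therefore holds their reads more than once, and their calls are not separate. Hspb6 itself, which is abundant in striated and smooth muscle, had 8.86, 1.51 and 3.94 CPM in the libraries labelled knockout against 12.6, 9.43 and 8.95 CPM in WT, highest in WT replicate 1. Its link with the muscle content of that library was not tested.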

How the data were processed

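RNA of inguinal white adipose tissue from 6 mice was sequenced as standard Illumina libraries, per the labels' protocols. For every mouse the authors deposited a column of raw read counts by gene, as whole numbers. In the submitters' processing notes stand bcl2fastq, CASAVA 1.8, TopHat, DESeq, mm10 and GRCm38. The sources used here do not say how reads were assigned to genes, with which annotation, or whether by strand. Overlapping, antisense and near-identical genes may therefore share reads. Column names were matched to the labels, and 24334 of 24415 gene IDs to symbols through RefSeq GRCm38.p6. Coding lengths are the union of coding exons in GENCODE M21.

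Genotypes were compared with edgeR 4.0.16 in R 4.3.3 over all genes (filterByExpr with minimum count 10 and minimum total 15, TMM, quasi-likelihood test on genotype alone, Benjamini-Hochberg threshold 0.05), on 3 against 3 libraries. SEs were derived from the test's F values. The test was first checked on simulated counts, in which no library was made to stand apart. It made 172 calls, 16 of them of unchanged genes. Of 50 genes changed at each size, it recovered 15 at 1.5-fold, 42 at 2-fold, 49 at 4-fold and 50 at 8-fold. Alternatives were RLE and upper quartile normalization, no filter or at least 1 CPM in 3 libraries, DESeq2 1.42.0, limma-voom (limma 3.58.1), a replicate block and leaving out each library, and, chosen after seeing the data, leaving out 2 libraries. The members and lists were chosen with earlier results of these data known. Genes outside the 37 were named as up to 4 of the highest mean CPM per list, plus called genes where few. Library sizes set the precision: 3 counts, the floor used for a count of 0, are 0.0907 to 0.223 CPM. The p-values set the difference between genotypes against the spread between mice of the same genotype. The labels do not say how mice were paired or bred, so genotype cannot be told apart from differences in breeding. A gene that met the likeness rule is not reported here.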

Additional observations from a re-analysis of the deposited data

How the results depend on the processing

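Every alternative run with edgeR or limma-voom called 0 of the tested sarcomere genes, and DESeq2 called 3 lower and 0 higher (it gave no adjusted p for Actn3 and Pvalb). The median log2 change of the tested genes was -2.04, and was -1.36 with limma-voom, -0.42 without WT replicate 1 and the library labelled Hsp20 KO replicate 1 together, and between -2.485 and -0.52 when single libraries were left out. Among the fits with a single library left out, it was lowest in size without WT replicate 1, which holds most sarcomere counts. Over all genes, edgeR called 676 higher and 547 lower, DESeq2 1135 and 1024, and leaving out single libraries gave from 75 to 941 higher and from 53 to 730 lower (fewest without WT replicate 3, most without the library labelled Hsp20 KO replicate 1). Same-numbered libraries did not deviate together (correlations of -0.037, 0.093 and -0.096 for numbers 1 to 3), and the fit with the replicate number as a block called 226 higher and 169 lower over all genes, 0 of them sarcomere genes. Without Des, Tpm2, Mb and Eno3 the summed level was 104, 129 and 177 CPM in the libraries labelled Hsp20 KO replicates 1 to 3, against 1344, 143 and 216 CPM in WT replicates 1 to 3.

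Signs turned for few members, none of them called. Mybpc2 had log2 changes of 0.78 with limma-voom, 0.53 with the block, 2.28 with both libraries left out and from -0.99 to 1.996 with single libraries left out. Eno3 had 0.075, 0.038 and 0.49 in those first 3 settings and from -0.25 to 0.43 with single libraries left out. That last range was -1.40 to 1.28 for Casq1, -0.36 to 0.022 for Mb, -0.056 to 0.24 for Des and -0.33 to 0.22 for Jph1. With both libraries left out Actn2 had 0.12, Mybpc1 0.22, Casq1 1.41, Mb 0.13 and Jph1 0.30. The causes were not tested. The smallest library, labelled Hsp20 KO replicate 3, limits genes under about 0.223 CPM.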

Other observations

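Beyond the 37 genes and their named calls, 12 genes with a mean of at least 1 CPM were found whose levels over the 6 libraries ran closest to the median profile of the sarcomere genes, by the root mean square difference of centred log2 CPM over 14611 candidates. Their differences were from 0.209 to 0.567, and among them were A930016O22Rik, Hrc, Nrap, Pygm, Cmya5, Peg3, Mylk4, Myh13, Mylk2, 9930111J21Rik1 and Txlnb. A930016O22Rik had 3.07, 3.62 and 4.01 CPM in the libraries labelled Hsp20 KO, against 34.9, 3.98 and 5.62 CPM in WT, and its transcripts hold 11.5% of the 50-base windows of Ckm. Pygm, the muscle glycogen phosphorylase, had 6.76, 9.57 and 9.65 CPM against 45.5, 7.83 and 8.86 CPM. Peg3, an imprinted zinc finger gene, had 8.75, 10.5 and 10.9 CPM against 45.6, 7.77 and 22.2 CPM, and 9930111J21Rik1 had 15.5, 12.4 and 12.0 CPM against 48.6, 13.0 and 17.8 CPM. The likeness chose these genes and is a description.

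Myosins of developing muscle were counted too, picked after their values were seen. Myh8, the perinatal heavy chain, had 0.145, 0.321 and 0.965 CPM in the libraries labelled Hsp20 KO, against 34.9, 0.783 and 2.75 CPM in WT, and Myh3, the embryonic chain, had 0.0362, 0.0458 and 0.149 CPM against 3.88, 0.196 and 0.423 CPM. Both are close relatives of the adult fast chains, and how many of their reads come from those was not tested.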
